A study of Mus musculus with 12 samples.

Results

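The genes described here were 38 interferon-stimulated genes, taken by symbol from a list of 39 and measured in heart muscle of 12 mice, out of 19505 genes on the array. They are known targets of interferon. Each of the 38 had 1 named probe set. The remaining listed gene, Ifi44, was not analysed here.

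The mice formed 3 groups of 4, with 1 microarray for each mouse, and the tissue of every array was labelled as myocardium. DM_AngIV mice were made diabetic with streptozotocin, which destroys pancreatic beta cells, given by intraperitoneal injection on 5 days in a row, and were kept if their fasting blood glucose was at least 16.7 mM 2 weeks later. They were then infused with angiotensin IV, a short peptide derived from angiotensin II, which the labels call high-dose at 2.88 mg/kg/day, between the ends of week 8 and week 24. DM mice had the same streptozotocin course and the same glucose criterion without angiotensin IV, and NC mice, the controls, had 5 daily injections of vehicle. The sample labels give 6 months for all 3 groups, and neither a vehicle infusion nor the strain or sex is given in the sources used here. Streptozotocin diabetes models loss of insulin, and the design held no group with angiotensin IV and no diabetes. Values are log2 expression as deposited, so a difference of 1 is a doubling, and errors are SD over 4 mice. The median of all probe sets lay between 4.12 and 4.19 on each array, and 9 cardiomyocyte markers averaged 11.35 to 11.54 on every array. In whole tissue, fewer cells of a type and less RNA per cell cannot be told apart.

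Type I interferons bind the receptor pair IFNAR1 and IFNAR2 on the cell surface, which activates the kinases JAK1 and TYK2. Their signal leads to assembly of the complex ISGF3, which holds STAT2 and IRF9 and binds interferon-stimulated response elements (ISREs) in the promoters of target genes. Interferon gamma acts through its own receptor, JAK1 and JAK2, and gamma-activated sequences (GAS) in promoters. The target genes encode sensors of foreign RNA, proteins that stop viral translation or entry, the ubiquitin-like modifier ISG15, transcription factors that carry the response forward, and secreted signals to immune cells. In the heart, cardiomyocytes, endothelial cells, fibroblasts and resident macrophages can all respond to interferon.

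Type I interferon acts through ISREs in promoters, so 5 promoter windows that hold the core of one are shown before the measurements. RefSeq promoter windows of build GRCm38.p6, each with 250 bases before and 50 bases after an annotated start site, existed for 28 of the 38 genes, as 32 windows. An ISRE core, written GAAA, any 2 bases and GAAA, was found on either strand in 15 of these 32 windows, or 46.9%, against 3.44% of all 32851 windows in the table. The GAS letters TTCNNNGAA were found on either strand in 7 of the 32, or 21.9%, against 8.3% of all windows. Matches may overlap each other, and a match describes the letters only. The 14 genes with an ISRE core were Bst2, Cxcl10, Ddx58, Eif2ak2, Ifih1, Ifit1, Ifit3, Ifitm3, Isg15, Oas1a, Rsad2, Stat2, Trim21 and Trim30a. The first 4 sequences below belong to genes named whatever their values, and Trim21 was added after its values were seen because it passed the test described further on. Each is written 5′ to 3′ along the strand of its gene, with the bases of the ISRE cores in capitals, and positions count the start site as 0. In Stat2, on the plus strand at chr10:128270248-128270547, the core began at -222. In Isg15, on the minus strand at chr4:156200769-156201068, 3 overlapping cores began at -78, -72 and -66. In Ifit1, on the plus strand at chr19:34640639-34640938, cores began at -104 and -85. In Ifit3, on the plus strand at chr19:34583279-34583578, cores began at -156 and -122. In Trim21, on the minus strand at chr7:102565433-102565732, 2 overlapping cores began at 13 and 19, after the start site.
Stat2: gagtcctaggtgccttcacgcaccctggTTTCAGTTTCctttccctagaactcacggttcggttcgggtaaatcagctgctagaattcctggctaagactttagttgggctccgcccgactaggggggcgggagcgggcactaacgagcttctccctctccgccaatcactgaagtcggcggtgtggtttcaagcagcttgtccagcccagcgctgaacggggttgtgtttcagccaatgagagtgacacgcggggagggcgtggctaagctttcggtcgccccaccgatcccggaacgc
Isg15: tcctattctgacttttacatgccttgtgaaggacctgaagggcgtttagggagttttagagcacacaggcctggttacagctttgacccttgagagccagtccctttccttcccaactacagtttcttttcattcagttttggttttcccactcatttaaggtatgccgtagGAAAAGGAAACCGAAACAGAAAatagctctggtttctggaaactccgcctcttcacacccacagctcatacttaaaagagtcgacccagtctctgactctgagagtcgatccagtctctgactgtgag
Ifit1: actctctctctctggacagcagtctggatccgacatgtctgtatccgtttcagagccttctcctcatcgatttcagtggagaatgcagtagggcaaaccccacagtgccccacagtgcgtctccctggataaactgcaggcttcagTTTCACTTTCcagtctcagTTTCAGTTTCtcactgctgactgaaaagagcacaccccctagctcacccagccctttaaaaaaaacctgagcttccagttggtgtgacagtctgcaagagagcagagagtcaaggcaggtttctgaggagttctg
Ifit3: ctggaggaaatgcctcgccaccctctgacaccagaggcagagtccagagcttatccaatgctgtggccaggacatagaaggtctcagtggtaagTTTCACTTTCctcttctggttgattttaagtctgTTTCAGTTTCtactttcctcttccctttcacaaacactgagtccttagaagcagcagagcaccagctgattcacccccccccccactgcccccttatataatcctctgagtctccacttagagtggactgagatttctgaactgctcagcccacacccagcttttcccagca
Trim21: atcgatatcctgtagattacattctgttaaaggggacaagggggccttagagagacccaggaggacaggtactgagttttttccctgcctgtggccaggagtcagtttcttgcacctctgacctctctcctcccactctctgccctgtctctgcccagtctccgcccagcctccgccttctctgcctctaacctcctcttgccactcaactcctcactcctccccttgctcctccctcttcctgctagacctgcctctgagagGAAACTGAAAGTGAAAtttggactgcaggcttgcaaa

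Of the 4 genes that rose with the test described below, only Trim21 held an ISRE core in its window. Cd274 and Lgals3bp held neither motif. One of the windows of Ifit2 held GAS letters and none held an ISRE core.

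Many of these genes gave weak signals in heart muscle. The background was taken as 4.96, the 95th percentile of 246 reporter control probe sets. Of the 38 genes, 11 were above it on all 12 arrays, 11 on some arrays and 16 on none, against 49.7% of all genes on none. The 11 above it throughout were Ifih1, Ifit3, Bst2, Ifitm3, Eif2ak2, Ifi204, Ifi35, Xaf1, Irf1, Dtx3l and Lgals3bp. Counted by group, 22 of the 38 were above it on at least 1 array of DM_AngIV, 18 in DM and 16 in NC. No fold change is given where neither group had an array above this level, and a lower bound against it where only 1 group had. Such a bound concerns the observed means and is not a confidence limit.

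Interferon-stimulated genes lay mostly higher in angiotensin IV treated diabetic hearts than in control hearts, and 4 of them passed the test. Ifit2, Trim21, Cd274 and Lgals3bp rose in DM_AngIV against NC in limma, with p-values adjusted by Benjamini-Hochberg across the 19505 genes and a threshold of 0.05, and 0 fell. Over all genes 0.728% rose and 0.287% fell in that comparison. At an unadjusted p below 0.05, 19 of the 38 were higher and 1, Zbp1, was lower, against 8.11% and 6.53% of all genes. The list was chosen with earlier results of these data known, so counts set beside all genes, here and below, are descriptive only. In 9 of the 38 every DM_AngIV array was above every NC array, against 5.63% of all genes. These 9 were Ifit2, Ifi204, Usp18, Irf7, Irf9, Trim21, Parp14, Cd274 and Lgals3bp. The count of 4 passing genes was 5 without DM_AngIV replicate 2, and 1 or 2 without any other of the 8 arrays, and the count at the unadjusted p, 20 in both directions, was 13 without NC replicate 2. The difference was above 0 for 34 of 38, against 48.5% of all genes, with a median of 0.30 beside -0.01 over all genes.

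In untreated diabetic hearts most of the list also lay above control hearts, with no gene passing the test. In DM against NC, 0 of the 38 passed in limma, where 0.0154% of all genes did, and the smallest adjusted p among them was 0.154. At an unadjusted p below 0.05, 11 were higher and 0 lower, against 4.69% and 4.26% of all genes. Without NC replicate 2 the count of 11 was 7. In 7 genes, Ifih1, Ifit2, Ifitm3, Ifi204, Trim25, Parp14 and Lgals3bp, every DM array was above every NC array, against 2.45% of all genes. The difference was above 0 for 32 of 38, against 49.8% of all genes, and its median was 0.25, beside -0.00 over all genes.

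Angiotensin IV treatment compared within diabetic hearts gave no passing gene. In DM_AngIV against DM, 0 of the 38 passed in limma, as for 0.0% of all genes, and the smallest adjusted p was 0.283. At an unadjusted p below 0.05, 6 were higher, namely Ifit1, Ifit2, Eif2ak2, Irf9, Trim21 and Cd274, and 2 were lower, Oas1a and Ifitm3, against 3.98% and 3.5% of all genes. The count of 8 in both directions was 5 without DM_AngIV replicate 3. Trim21 alone of the 38 had every DM_AngIV array above every DM array, a share close to the 2.81% of all genes. The difference was above 0 for 25 of 38, against 49.8% of all genes, with a median of 0.07 beside -0.00 over all genes. All 3 comparisons share arrays, so their counts are not independent of each other.

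**Figure D1:**
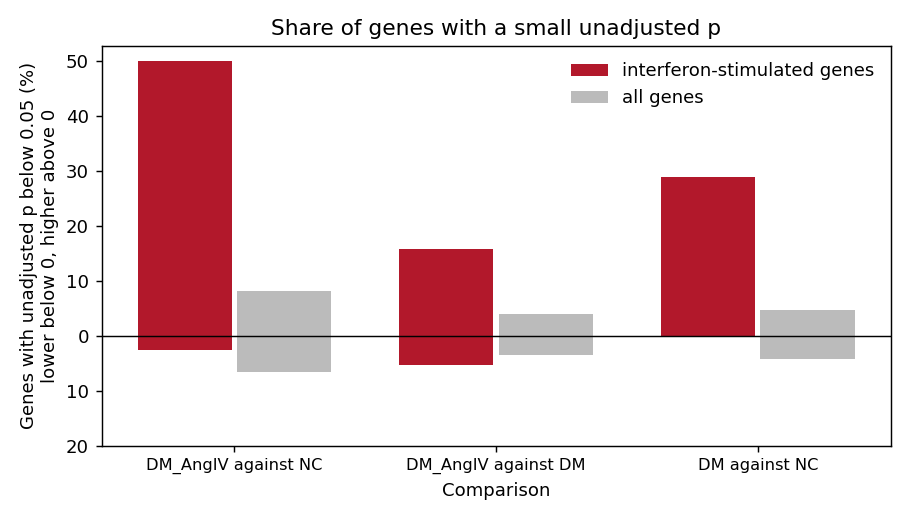
Share of genes, in percent, with an unadjusted p below 0.05 in limma, plotted above 0 for genes higher and below 0 for genes lower in the first-named group, for the 38 interferon-stimulated genes and for all 19505 genes. Higher genes were 19 of the 38 in DM_AngIV against NC, 6 (15.8%) in DM_AngIV against DM and 11 (28.9%) in DM against NC.

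**Figure D2:**
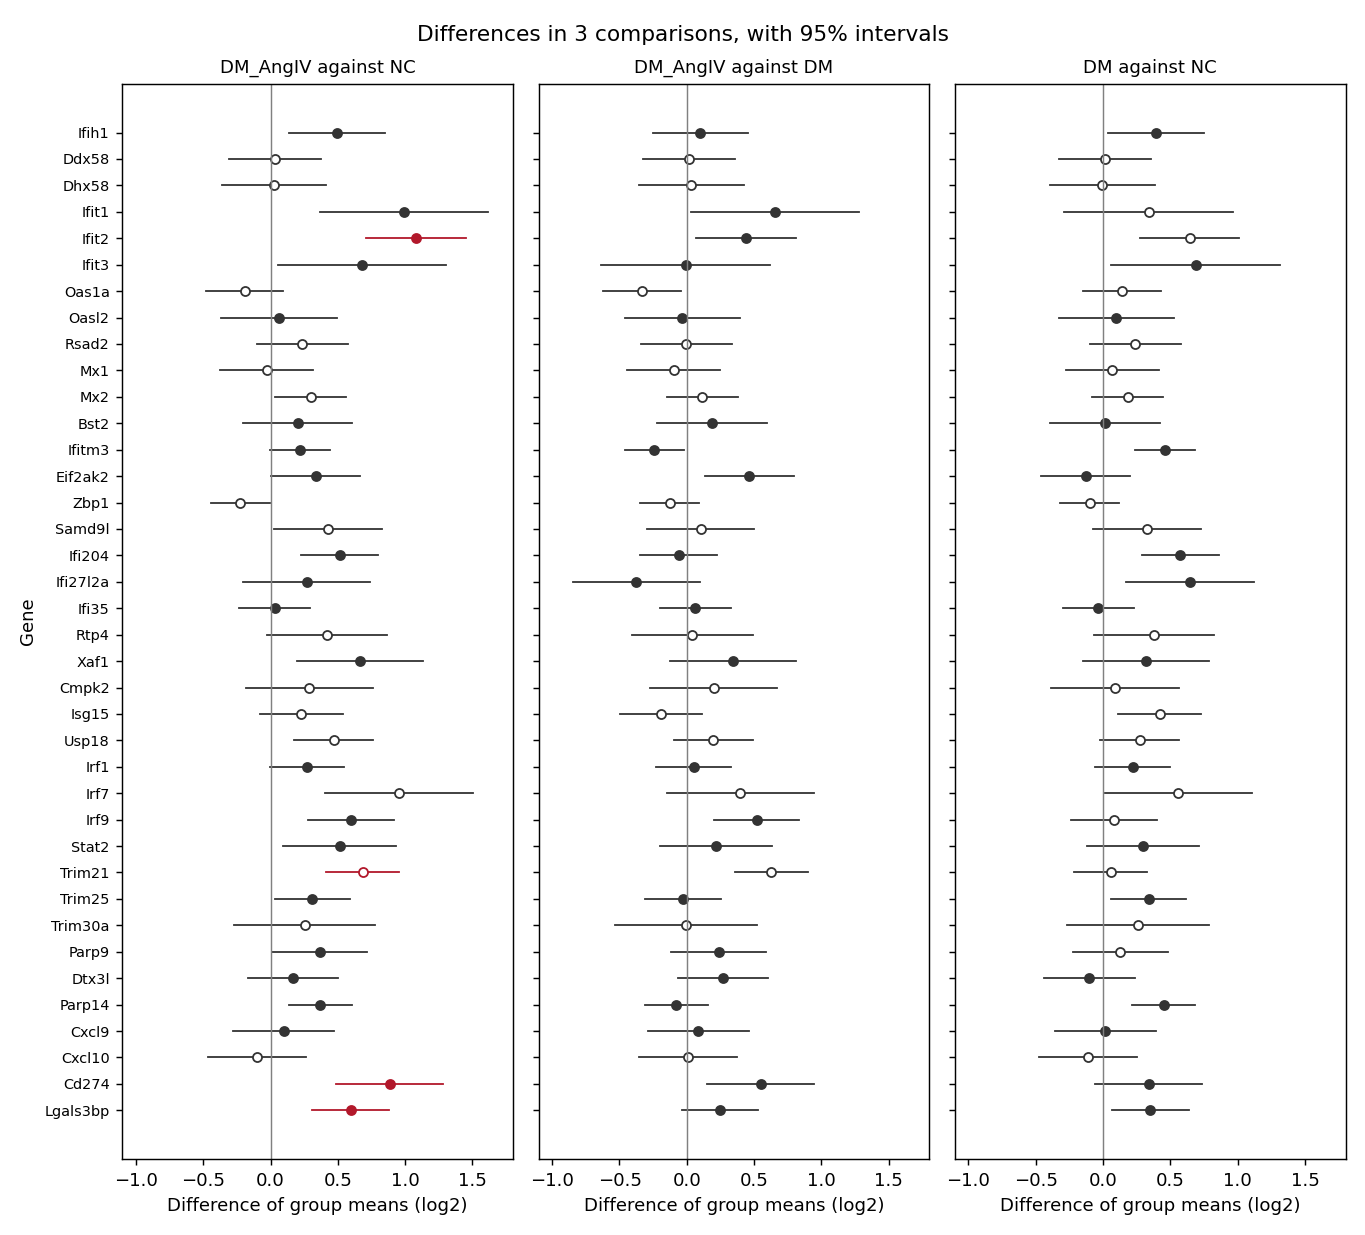
Difference of group means (log2) with its 95% interval for each of the 38 genes in 3 comparisons, where hollow points mark genes not above 4.96 in either group and red marks an adjusted p below 0.05. The 4 red points, Ifit2, Trim21, Cd274 and Lgals3bp, all lie in DM_AngIV against NC.

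The transcription factors of the response are given first. Irf7, which amplifies type I interferon production, had 4.62, 3.47, 4.29 and 3.67 in DM_AngIV, 3.31, 3.05, 3.95 and 4.16 in DM, and 3.08, 2.76, 3.24 and 3.16 in NC. Every DM_AngIV value was above every NC value, DM overlapped both groups, and no array exceeded the background level. The difference was 0.96 ± 0.26 (SE) in DM_AngIV against NC with an adjusted p of 0.0897, 0.40 ± 0.26 in DM_AngIV against DM with 0.756, and 0.56 ± 0.26 in DM against NC with 0.542.

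Irf9, the DNA-binding subunit of ISGF3, had 5.54, 4.77, 5.26 and 5.25 in DM_AngIV, 4.95, 4.59, 4.60 and 4.61 in DM, and 4.73, 4.46, 4.75 and 4.49 in NC. The DM_AngIV values lay above all NC values, and replicate 2 of DM_AngIV fell within the DM range. Only DM_AngIV was above background, on 3 of its 4 arrays, so its observed mean was at least 1.19-fold that of NC and of DM, though neither difference passed. The differences were 0.60 ± 0.15 (SE) in DM_AngIV against NC with an adjusted p of 0.0703, and 0.52 ± 0.15 in DM_AngIV against DM with 0.513. Between DM and NC the difference was 0.08 ± 0.15 with an adjusted p of 0.933.

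Stat2, the STAT that is specific to type I and type III interferon signalling, had 5.88, 5.22, 5.97 and 5.19 in DM_AngIV, 5.52, 5.22, 5.25 and 5.40 in DM, and 5.32, 4.65, 4.85 and 5.38 in NC. Replicates 1 and 3 of DM_AngIV were above every other array, and the groups overlapped. The difference in DM_AngIV against NC was 0.51 ± 0.20 (SE), a 1.43-fold higher mean, with an adjusted p of 0.237, and 2 of the 4 NC arrays were above background. The adjusted p was 0.821 in DM_AngIV against DM and 0.717 in DM against NC. Irf1, the factor that acts mainly downstream of interferon gamma, averaged 6.54 ± 0.26 in DM_AngIV, 6.49 ± 0.17 in DM and 6.27 ± 0.09 in NC.

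The 3 IFIT genes, which lie next to each other on chromosome 19 and encode proteins that bind foreign RNA or block its translation come next, and Ifit2 and Ifit1 had the highest differences of the 38 genes in DM_AngIV against NC. Ifit2 had 5.36, 4.83, 5.20 and 5.15 in DM_AngIV, 4.69, 4.64, 4.86 and 4.60 in DM, and 4.49, 3.56, 3.87 and 4.30 in NC. Every DM_AngIV and every DM value exceeded every NC value, while DM_AngIV replicate 2 lay within the DM range. The mean was 5.14 ± 0.22 in DM_AngIV, 4.70 ± 0.12 in DM and 4.06 ± 0.42 in NC (SD, n = 4). Ifit2 rose in DM_AngIV against NC by 1.08 ± 0.17 (SE) with an adjusted p of 0.0102 in limma, at least a 1.13-fold higher level because no NC array was above background. It kept an adjusted p below 0.05 when any 1 array was left out. For DM against NC the difference was 0.64 ± 0.17 with an adjusted p of 0.262, and in DM_AngIV against DM it was 0.44 ± 0.17 with 0.624.

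Ifit1 had 5.01, 3.75, 5.64 and 4.31 in DM_AngIV, 4.06, 3.67, 3.90 and 4.45 in DM, and 3.83, 3.81, 3.52 and 3.57 in NC. Replicates 1 and 3 of DM_AngIV were the highest of all arrays, replicate 2 lay within the NC range, and only replicates 1 and 3 were above background. The difference in DM_AngIV against NC was 0.99 ± 0.29 (SE) with an adjusted p of 0.117. For DM_AngIV against DM it was 0.66 ± 0.29 with 0.655, and in DM against NC 0.34 ± 0.29 with 0.789.

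Ifit3 had 7.37, 6.20, 7.31 and 6.52 in DM_AngIV, 6.33, 6.61, 7.22 and 7.28 in DM, and 6.90, 5.74, 6.01 and 6.03 in NC. The groups overlapped, with replicates 1 and 3 high in DM_AngIV and replicates 3 and 4 high in DM. The mean difference was 0.68 ± 0.29 (SE) in DM_AngIV against NC, 1.60-fold, with an adjusted p of 0.299, and 0.69 ± 0.29 in DM against NC, 1.61-fold, with 0.513. Between the diabetic groups it was -0.01, with a 95% interval of -0.64 to 0.62. Mice also carry Ifit3b, a close copy of Ifit3, and whether its RNA added to this signal was not tested.

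**Figure D3:**
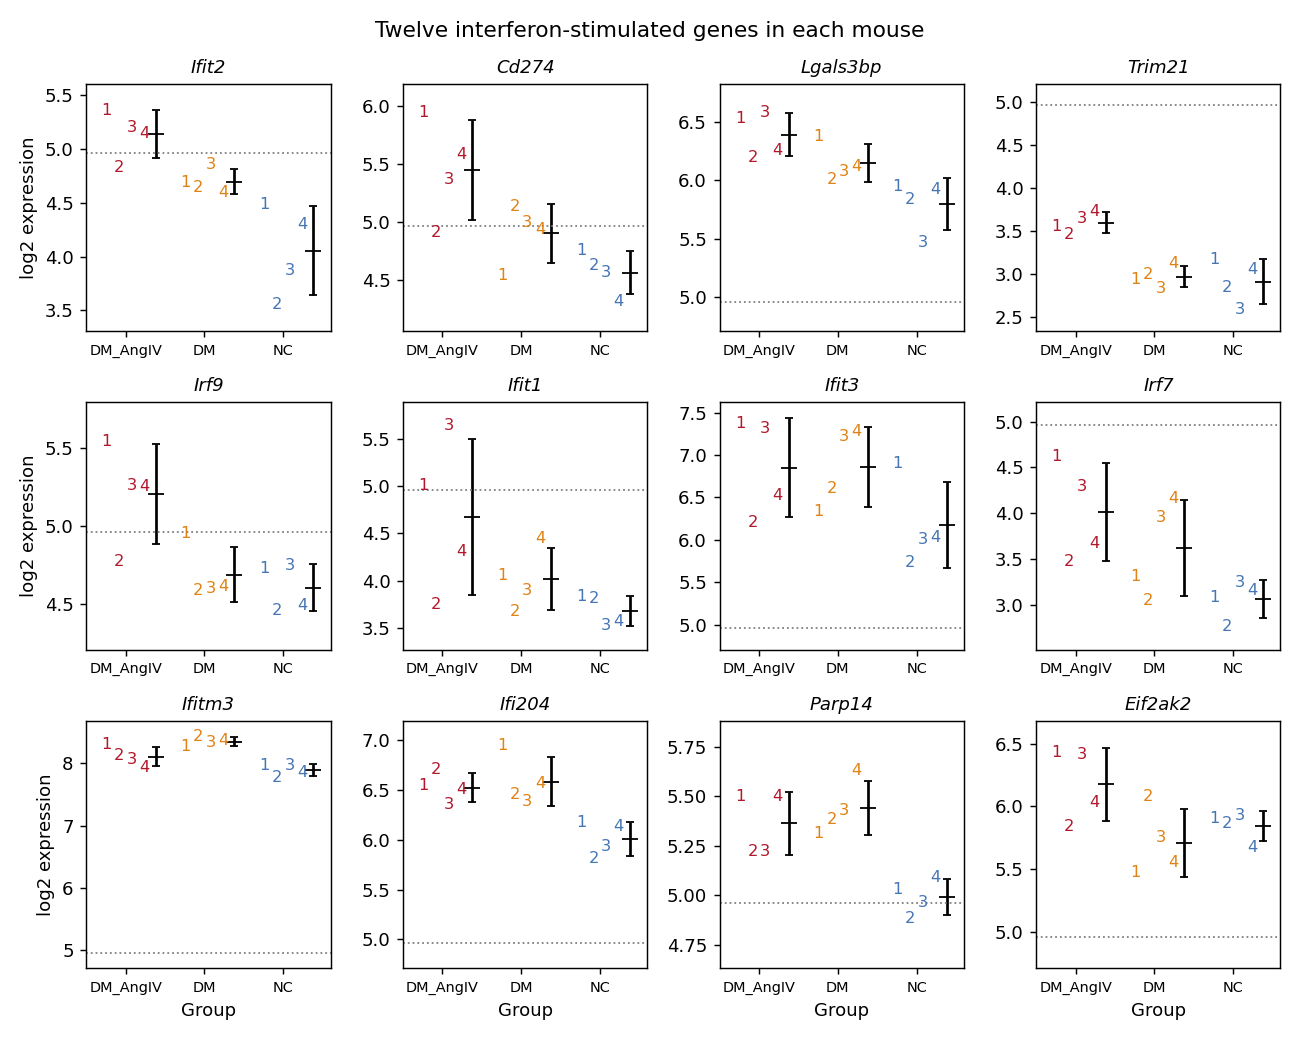
log2 expression of 12 of the genes in each mouse, with digits giving the replicate number, black marks the mean ± SD of 4 mice, and dotted lines the background level of 4.96. All 4 DM_AngIV arrays lie above all NC arrays for Ifit2, Cd274, Lgals3bp, Trim21, Irf9, Irf7, Ifi204 and Parp14, and Trim21 also separates DM_AngIV from DM.

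Among the sensors of viral RNA in the cytoplasm, only Ifih1, which encodes MDA5, was above background. It averaged 5.84 ± 0.42 in DM_AngIV, 5.74 ± 0.12 in DM and 5.34 ± 0.14 in NC. Its difference was 0.49 ± 0.17 (SE) in DM_AngIV against NC with an adjusted p of 0.173. All 4 DM arrays lay above all NC arrays, with a difference of 0.39 ± 0.17 and an adjusted p of 0.50. Ddx58, which encodes RIG-I, and Dhx58, which encodes LGP2, differed by at most 0.03 between any pair of groups.

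Of the 2-5A synthetase genes, whose products activate the ribonuclease RNase L, Oas1a had 3.83, 3.64, 3.44 and 3.61 in DM_AngIV, 4.06, 3.77, 3.82 and 4.21 in DM, and 3.85, 3.70, 4.12 and 3.64 in NC. DM_AngIV was the lowest group by mean but overlapped both others, and no array was above background. The difference in DM_AngIV against DM was -0.33 ± 0.14 (SE) with an adjusted p of 0.629. Oasl2, of the same family, averaged 5.15 ± 0.20 in DM_AngIV, 5.18 ± 0.48 in DM and 5.08 ± 0.27 in NC.

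The other antiviral effectors numbered 14 and did not move as 1 group. Ifitm3, which blocks viral entry at endosomes, had 8.31, 8.12, 8.06 and 7.94 in DM_AngIV, 8.27, 8.43, 8.34 and 8.36 in DM, and 7.97, 7.78, 7.97 and 7.85 in NC. It was highest in untreated diabetic hearts, where every array lay above every NC array, and DM_AngIV overlapped both groups. Its mean in DM was 1.37-fold that of NC, a difference of 0.46 ± 0.10 (SE) with an unadjusted p of 0.000466 and an adjusted p of 0.154. The difference in DM_AngIV against DM was -0.24 ± 0.10 with an adjusted p of 0.643, and in DM_AngIV against NC 0.22 ± 0.10 with 0.349.

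Ifi204, a member of the mouse p200 family of DNA-binding proteins, had 6.54, 6.70, 6.35 and 6.50 in DM_AngIV, 6.94, 6.45, 6.38 and 6.56 in DM, and 6.17, 5.81, 5.93 and 6.13 in NC. All 8 diabetic arrays were above all 4 control arrays. The difference was 0.51 ± 0.13 (SE), 1.43-fold, in DM_AngIV against NC with an adjusted p of 0.081, and 0.57 ± 0.13, 1.49-fold, in DM against NC with 0.186. Between the diabetic groups it was -0.06, with a 95% interval of -0.34 to 0.23.

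Eif2ak2, which encodes the kinase PKR that halts translation when double-stranded RNA is present, had 6.43, 5.84, 6.41 and 6.03 in DM_AngIV, 5.47, 6.08, 5.75 and 5.55 in DM, and 5.90, 5.86, 5.93 and 5.67 in NC. Here DM was the lowest group by mean, and DM replicate 2 lay within the DM_AngIV range. The difference was 0.46 ± 0.15 (SE), 1.38-fold, in DM_AngIV against DM with an adjusted p of 0.60, and 0.34 ± 0.15 in DM_AngIV against NC with 0.332. For DM against NC it was -0.13 ± 0.15 with 0.866.

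Ifi27l2a, a strongly interferon-induced gene of mice, had 5.46, 5.19, 4.79 and 4.52 in DM_AngIV, 5.47, 5.26, 5.04 and 5.70 in DM, and 5.33, 4.55, 4.37 and 4.64 in NC. Its order was DM above DM_AngIV above NC by mean, with overlap throughout. It was above background on 2 of 4 DM_AngIV, 4 of 4 DM and 1 of 4 NC arrays. The difference was 0.64 ± 0.22 (SE) in DM against NC, with an adjusted p of 0.39, and -0.38 ± 0.22 in DM_AngIV against DM with 0.725. Of the remaining effectors, Xaf1, which promotes apoptosis, averaged 6.17 ± 0.51 in DM_AngIV, 5.83 ± 0.26 in DM and 5.51 ± 0.32 in NC. Its difference of 0.66 ± 0.22 in DM_AngIV against NC had an adjusted p of 0.169. Rsad2, Mx1, Mx2, Zbp1, Samd9l, Rtp4 and Cmpk2 were above background on no array.

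Within ISG15 conjugation, Isg15 itself had 3.93, 3.89, 3.92 and 3.42 in DM_AngIV, 3.95, 3.64, 4.18 and 4.15 in DM, and 3.76, 3.55, 3.47 and 3.46 in NC. The groups overlapped, and none of the 12 arrays was above background. The difference was 0.23 ± 0.14 (SE) in DM_AngIV against NC with an adjusted p of 0.502, -0.19 ± 0.14 in DM_AngIV against DM with 0.784, and 0.42 ± 0.14 in DM against NC with 0.39. Usp18, which removes ISG15 from proteins and restrains the type I receptor, had 4.48, 3.92, 4.51 and 4.19 in DM_AngIV, 3.96, 4.17, 4.27 and 3.90 in DM, and 3.87, 3.90, 3.64 and 3.80 in NC. Every DM_AngIV value was above every NC value, also below background. The difference was 0.47 ± 0.14 in DM_AngIV against NC with an adjusted p of 0.117, 0.20 ± 0.14 in DM_AngIV against DM with 0.773, and 0.27 ± 0.14 in DM against NC with 0.603.

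Among the TRIM ubiquitin ligases, Trim21 encodes a cytoplasmic receptor for antibody-coated particles. It was the only one of the 38 genes whose DM_AngIV arrays lay above all 8 other arrays. Over all genes, 2.81% had every DM_AngIV array above every DM array, so 1 gene of 38 was close to that share. Trim21 had 3.55, 3.46, 3.65 and 3.73 in DM_AngIV, 2.94, 3.0, 2.83 and 3.12 in DM, and 3.17, 2.84, 2.59 and 3.05 in NC. The lowest DM_AngIV value was above every DM and every NC value, and all 12 values were below background, so no fold is given. Trim21 rose in DM_AngIV against NC by 0.68 ± 0.13 (SE) with an adjusted p of 0.0192, and the difference in DM_AngIV against DM was 0.63 ± 0.13 with 0.283. Between DM and NC it was 0.06 ± 0.13 with an adjusted p of 0.948. The call in DM_AngIV against NC was lost without DM_AngIV replicate 3 (adjusted p = 0.0643), DM_AngIV replicate 4 (0.0715) or NC replicate 2 (0.0603). Trim25, which activates RIG-I, averaged 4.98 ± 0.20 in DM_AngIV, 5.01 ± 0.18 in DM and 4.67 ± 0.18 in NC. Trim30a, known in mice as a brake on inflammatory signalling, averaged 3.93 ± 0.61 in DM_AngIV, 3.94 ± 0.38 in DM and 3.68 ± 0.20 in NC.

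Parp14, an ADP-ribosyltransferase next to Parp9 and Dtx3l on chromosome 16, had 5.50, 5.22, 5.22 and 5.50 in DM_AngIV, 5.31, 5.38, 5.43 and 5.63 in DM, and 5.03, 4.88, 4.96 and 5.09 in NC. As for Ifi204, all 8 diabetic arrays were above all control arrays, of which 3 of 4 were above background. The difference was 0.37 ± 0.11 (SE), 1.29-fold, in DM_AngIV against NC with an adjusted p of 0.12, and 0.45 ± 0.11, 1.36-fold, in DM against NC with 0.212. Between DM_AngIV and DM it was -0.08 ± 0.11 with 0.898. Its neighbours, whose products form a complex at damaged DNA, had other orders of means. Parp9 averaged 4.79 ± 0.33 in DM_AngIV, 4.56 ± 0.18 in DM and 4.43 ± 0.25 in NC. Dtx3l averaged 6.14 ± 0.36 in DM_AngIV, 5.87 ± 0.08 in DM and 5.97 ± 0.21 in NC.

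Of the 4 genes of secreted and surface proteins, Cd274 and Lgals3bp rose in DM_AngIV against NC, where 0.728% of all genes rose. Both calls depended on which arrays were used. Cd274, which encodes the T cell inhibitory ligand PD-L1, had 5.94, 4.91, 5.36 and 5.58 in DM_AngIV, 4.54, 5.13, 4.99 and 4.93 in DM, and 4.75, 4.62, 4.56 and 4.31 in NC. Every DM_AngIV value exceeded every NC value, and replicate 2 lay within the DM range. Cd274 rose in DM_AngIV against NC by 0.89 ± 0.19 (SE) with an adjusted p of 0.0331, at least a 1.40-fold higher level, as no NC array was above background. This call held only without DM_AngIV replicate 2 among the 8 fits that left out 1 array, and the adjusted p reached 0.0968. For DM_AngIV against DM the difference was 0.55 ± 0.19 with an adjusted p of 0.605, where 3 of 4 DM_AngIV and 2 of 4 DM arrays were above background, and in DM against NC 0.34 ± 0.19 with 0.634.

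Lgals3bp, which encodes a secreted galectin-3 binding protein, had 6.53, 6.20, 6.58 and 6.26 in DM_AngIV, 6.38, 6.01, 6.08 and 6.12 in DM, and 5.95, 5.84, 5.47 and 5.92 in NC. Both diabetic groups lay wholly above NC, and they overlapped each other. Lgals3bp rose in DM_AngIV against NC by 0.60 ± 0.13 (SE), 1.51-fold, with an adjusted p of 0.0458. The adjusted p was between 0.0601 and 0.139 when any 1 array was left out, so this call needed all 8. Set against NC, DM differed by 0.35 ± 0.13, 1.28-fold, with an adjusted p of 0.453, and DM_AngIV differed from DM by 0.24 ± 0.13 with 0.70.

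The chemokines Cxcl9 and Cxcl10, neighbours on chromosome 5 that draw activated T cells through the receptor CXCR3, showed no such order. Cxcl9 had 5.27, 5.18, 4.67 and 4.86 in DM_AngIV, 4.74, 4.74, 5.12 and 5.04 in DM, and 4.68, 5.43, 4.73 and 4.75 in NC, where the highest value of all was a control. Cxcl10 had 3.44, 3.37, 2.89 and 2.62 in DM_AngIV, 2.98, 2.85, 3.25 and 3.19 in DM, and 3.02, 3.01, 3.32 and 3.37 in NC, all below background. The groups overlapped for both genes. In DM_AngIV against NC the difference was 0.10, with a 95% interval of -0.28 to 0.47, for Cxcl9 and -0.10, with an interval of -0.46 to 0.26, for Cxcl10. The adjusted p was at least 0.847 for both genes in each comparison.

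The 4 mice of the treated group were not alike. Replicate 1 was the highest DM_AngIV array for 24 of the 38 genes, against 27.5% of all genes, and replicate 3 for 10, against 24.1%. Replicate 2 was the lowest for 19, against 24.8% of all genes, and replicate 4 for 13, against 25.8%. The mean of the 38 genes was 5.17, 4.75, 5.01 and 4.76 in DM_AngIV, 4.76, 4.69, 4.84 and 4.91 in DM, and 4.72, 4.45, 4.55 and 4.54 in NC. All 4 DM_AngIV means were thus above all NC means, and 2 of them, replicates 2 and 4, lay within the DM range. In NC, replicate 1 was the highest array for 19 of the 38, against 22.6% of all genes, and replicate 2 the lowest for 19, against 25.1%.

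**Figure D4:**
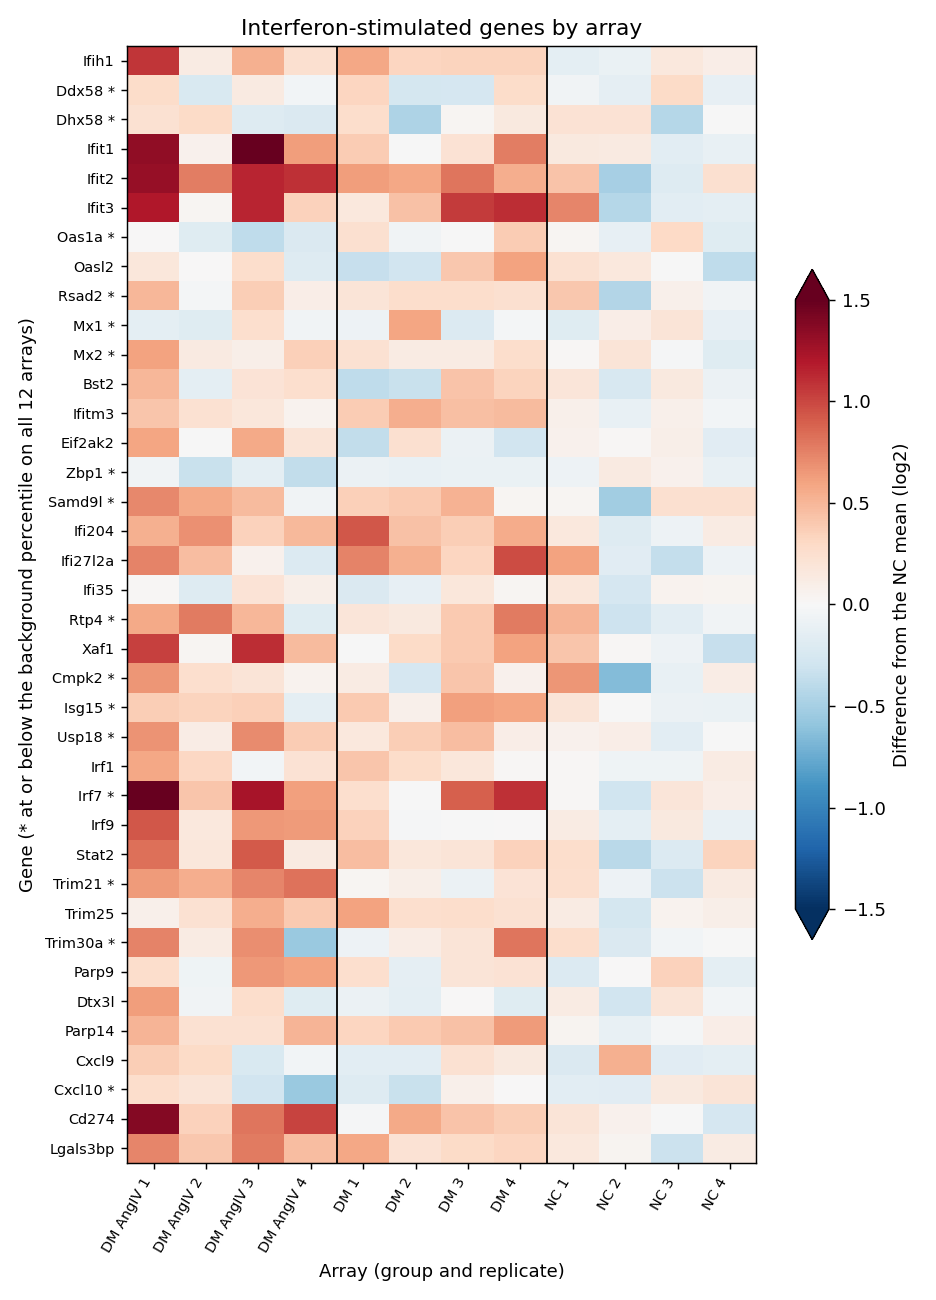
Heat map of the 38 genes (rows, grouped by role) on the 12 arrays (columns), coloured by the difference from the NC mean of each gene on the log2 scale, with an asterisk on genes above background on no array. DM_AngIV replicates 1 and 3 carry the deepest red, led by Ifit1, Irf7, Cd274, Ifit2 and Ifit3.

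Upstream of these genes, the interferons themselves were weakly measured. Of 10 interferon ligands, 7 were above background on no array, Ifnb1 among them, which averaged 4.17 ± 0.27 in DM_AngIV, 4.22 ± 0.10 in DM and 4.10 ± 0.07 in NC. Of all 110 measured genes in the lists of ligands, receptors, JAK-STAT signalling, nucleic acid sensing and other interferon-induced genes, 0 passed in limma in any comparison. At an unadjusted p below 0.05, 22 of the 110 were higher and 2 lower in DM_AngIV against NC, beside 8.11% and 6.53% of all genes. In DM against NC 16 were higher and 2 lower, beside 4.69% and 4.26%. In DM_AngIV against DM 5 were higher and 5 lower, near the all-gene shares of 3.98% and 3.5%.

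None of the 6 receptor genes passed in any comparison. At an unadjusted p below 0.05, Il10rb and Ifnlr1 were higher in DM_AngIV against DM, beside 3.98% of all genes. Ifngr2 was lower in DM against NC, beside 4.26%, and Ifnar1 was higher in DM_AngIV against NC, beside 8.11%. With so few receptor genes, these counts say little. Il10rb, a chain that the type III interferon receptor shares with the IL-10 receptor, averaged 8.16 ± 0.08 in DM_AngIV, 7.88 ± 0.07 in DM and 7.97 ± 0.19 in NC. All 4 DM_AngIV values of Il10rb were above all DM values, as in 2.81% of all genes, with an adjusted p of 0.62. Il10rb was named after its values were seen. Ifngr2 averaged 8.31 ± 0.15 in DM_AngIV, 8.16 ± 0.29 in DM and 8.49 ± 0.23 in NC. Ifnar1 averaged 5.43 ± 0.09 in DM_AngIV, 5.28 ± 0.10 in DM and 5.21 ± 0.11 in NC, and its adjusted p was 0.336 in DM_AngIV against NC. Ifnar2 averaged 8.00 ± 0.13 in DM_AngIV, 8.17 ± 0.21 in DM and 8.12 ± 0.13 in NC. Ifngr1, of the interferon gamma receptor, averaged 6.95 ± 0.02 in DM_AngIV, 6.91 ± 0.26 in DM and 6.80 ± 0.14 in NC.

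None of the kinases named here passed. Jak2 and Tbk1 were named for their small p-values in DM_AngIV against DM among the 110 genes. Their separation of the groups therefore follows in part from that choice, while Tyk2 and Jak1 were named whatever their values. Jak2 averaged 6.37 ± 0.09 in DM_AngIV, 5.91 ± 0.29 in DM and 5.77 ± 0.16 in NC, with a difference of 0.60 ± 0.14 (SE) and an adjusted p of 0.0501 in DM_AngIV against NC. All 4 DM_AngIV arrays were above all other arrays for Jak2, Tyk2 and Tbk1. Over all genes, every DM_AngIV array was above every DM array in 2.81%, and above every NC array in 5.63%. The share above both groups at once was not counted. Tyk2 averaged 6.58 ± 0.05 in DM_AngIV, 6.21 ± 0.26 in DM and 6.13 ± 0.23 in NC, with an adjusted p of 0.129 in DM_AngIV against NC. Jak1 averaged 5.98 ± 0.12 in DM_AngIV, 6.00 ± 0.18 in DM and 5.88 ± 0.22 in NC. Tbk1, the kinase that activates IRF3 below the nucleic acid sensors, averaged 6.11 ± 0.09 in DM_AngIV, 5.77 ± 0.15 in DM and 5.80 ± 0.11 in NC, with adjusted p-values of 0.185 against NC and 0.596 against DM.

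Of the 67 other interferon-induced genes, 15 were higher and 1 lower at an unadjusted p below 0.05 in DM_AngIV against NC, beside 8.11% and 6.53% of all genes. In DM_AngIV against DM 0 were higher and 4 lower, beside 3.98% and 3.5%. For DM against NC the counts were 12 higher and 1 lower, beside 4.69% and 4.26%. Those described here had 1 of the 3 smallest p-values of the 110 genes in a comparison. Ifitm1, a plasma membrane relative of Ifitm3, averaged 6.43 ± 0.25 in DM_AngIV, 6.34 ± 0.41 in DM and 5.67 ± 0.28 in NC, and its adjusted p was 0.0756 in DM_AngIV against NC and 0.307 in DM against NC. Ly6e, a surface protein that restricts coronavirus entry, averaged 9.06 ± 0.26 in DM_AngIV, 9.12 ± 0.25 in DM and 8.65 ± 0.14 in NC. Ifi207, of the p200 family, averaged 6.00 ± 0.16 in DM_AngIV, 5.64 ± 0.57 in DM and 5.09 ± 0.24 in NC, with a difference of 0.91 ± 0.22 and an adjusted p of 0.0621 in DM_AngIV against NC. Gbp2, an interferon-induced GTPase, averaged 4.87 ± 0.20 in DM_AngIV, 4.58 ± 0.34 in DM and 4.23 ± 0.16 in NC, with an adjusted p of 0.0664 in DM_AngIV against NC. Sp140, a nuclear body protein, averaged 4.45 ± 0.25 in DM_AngIV, 4.68 ± 0.05 in DM and 4.26 ± 0.22 in NC. Shisa5, which promotes apoptosis and was among the 4 lower in DM_AngIV against DM, averaged 4.90 ± 0.20 in DM_AngIV, 5.28 ± 0.15 in DM and 5.36 ± 0.14 in NC, with an adjusted p of 0.0909 in DM_AngIV against NC.

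Among the marker lists of cell types, array means overlapped between all groups except for macrophages and monocytes in DM_AngIV against NC, where the gap was narrow. Several lists were compared in 3 comparisons, and 5.63% of all single genes had every DM_AngIV array above every NC array. No marker of any list passed in limma. The mean of 14 macrophage and monocyte markers ranged over 5.30 to 5.68 in DM_AngIV, 5.14 to 6.00 in DM and 5.11 to 5.28 in NC, so all 4 DM_AngIV arrays were above all NC arrays. Of these 14, 13 were higher by mean in DM_AngIV against NC and 13 in DM against NC, against 48.5% and 49.8% of all genes. None passed in limma, and Cx3cr1 and Ccr2 were above background on no array. The mean of 9 endothelial markers ranged over 7.23 to 7.67 in DM_AngIV, 6.98 to 7.60 in DM and 7.05 to 7.30 in NC, with overlap between all groups. Array means of fibroblast, plasmacytoid dendritic cell and adipocyte markers also overlapped between all groups. Neutrophil markers, 5 in number and none above background on any array, averaged 3.90 and 4.20 in DM replicates 1 and 2, against 2.81 to 3.39 on the other 10 arrays. All 11 markers of T and NK cells and all 4 of B cells were at or below background on every array. The part of these cells in the results on interferon-stimulated genes was not tested.

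Atrial markers also differed between arrays. Myl7, the atrial myosin light chain, was at 8.86, 9.68 and 8.10 in DM replicates 1, 2 and 4 and at 10.08 and 7.90 in NC replicates 1 and 3, and at or below background on all other arrays. Without these 5 arrays, which left 1 DM and 2 NC arrays, the differences in DM_AngIV against NC were 1.20 for Ifit2, 0.65 for Trim21, 0.98 for Cd274 and 0.51 for Lgals3bp. None of the 38 genes then passed in limma, and the adjusted p was 0.0637 for Ifit2, 0.106 for Trim21, 0.164 for Cd274 and 0.208 for Lgals3bp. With the mean of 7 atrial markers as a covariate over all 12 arrays, Ifit2 (adjusted p = 0.0143) and Trim21 (0.0223) passed, and Cd274 (0.0507) and Lgals3bp (0.0728) did not.

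**Figure D5:**
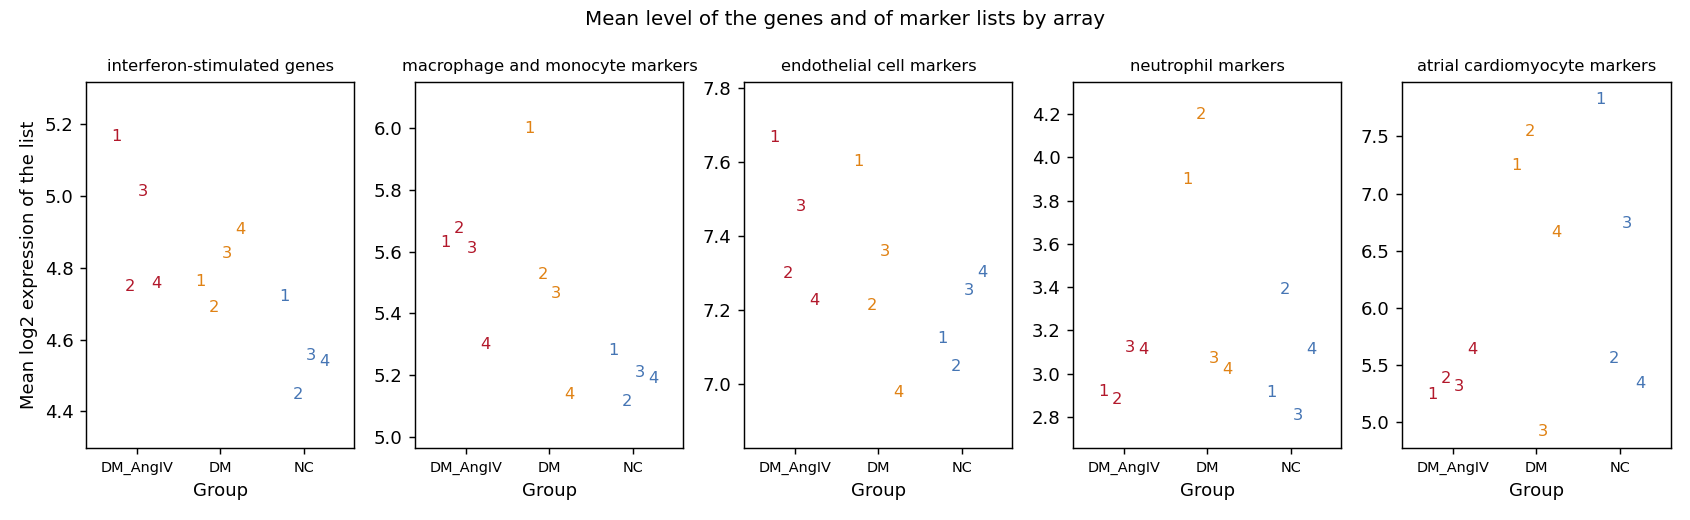
Mean log2 expression on each array of the 38 interferon-stimulated genes and of 4 marker lists, with digits giving the replicate number and each panel on its own axis. The means of the 38 genes and of the macrophage markers lie above all NC arrays in all 4 DM_AngIV mice, while atrial markers are high only in some DM and NC mice.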

How the data were processed

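Total RNA from myocardium of 12 mice was hybridised to 1 Affymetrix array per mouse, from 6 µg of RNA per the labels. The authors deposited log2 expression values made by RMA, which corrects background, sets arrays to a common distribution and summarises probes, per the submitters' processing notes. Its version is not given in the sources used here.

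Of 29129 probe sets, 19572 had 1 gene symbol in the platform annotation, 2634 had none, and 6923 were controls. All 19572 matched the RefSeq gene table (GRCm38.p6) by gene ID. The probe set with the highest mean was kept for the 55 symbols with several, which left 19505 genes. The interferon-stimulated genes and the pathway and marker lists were chosen with earlier results of these data known.

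One linear model with a mean per group was fitted over all 12 arrays and all genes with limma 3.58.1 in R 4.3.3 (lmFit and eBayes, two-sided). p-values were adjusted by Benjamini-Hochberg across the 19505 genes, with a threshold of 0.05 for a call. p-values measure the spread between mice, and arrays give no depth, so their number limits the precision. Named in full were the 6 genes with the smallest p in each comparison, any called gene, and 10 genes whatever their values. Genes of the pathway lists were named as the 3 with the smallest p per comparison, and 6 whatever their values. Some items are not reported here. Other genes complete a count or a role and were chosen after their values were seen. The fit was tested on simulated data. The background percentile, the fold bounds against it and the search for motifs used Python 3.11.15.

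Alternatives were filters on dim genes, other choices of probe set, another scaling, array weights, another variance prior, other thresholds, only the 8 arrays compared, the replicate number as a block, atrial signal, and each array left out in turn.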

Additional observations from a re-analysis of the deposited data

Results flagged for a closer look

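In 7 of the 114 sets of 4 arrays tested (38 genes in 3 groups), 1 array stood apart from the other 3 by a gap that, relative to the range, exceeded Dixon's 95% critical value. About 1 set in 20 does so by chance, or 5.7 here. Of the 7, 3 were in DM replicate 1, where Ifih1 was 5.92 against 5.66 to 5.68 on the other DM arrays, Irf9 was 4.95 against 4.59 to 4.61, and Trim25 was 5.28 against 4.90 to 4.94. The same array had the highest macrophage marker mean of all 12, at 6.00. In DM replicate 2, Parp9 was 4.30 against 4.62 to 4.68. In NC replicate 2, Trim25 was 4.41 against 4.73 to 4.79 and Cxcl9 was 5.43 against 4.68 to 4.75 on the other NC arrays. In DM_AngIV replicate 4, Isg15 was 3.42 against 3.89 to 3.93 on the other DM_AngIV arrays.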

How the results depend on the processing

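The count of called genes in DM_AngIV against NC was 4 and depended most on the arrays used. It was 0 without the arrays with atrial signal, 2 with the atrial marker mean as a covariate, 7 at an adjusted p below 0.10, and between 1 and 5 when 1 array was left out. In DM against NC it was 1 with a trended robust variance prior (Ifitm3, adjusted p = 0.0422), and 0 when any 1 array was left out, as in DM_AngIV against DM. The number with an unadjusted p below 0.05 in DM against NC was 11, and it was 7 without genes at or below the background percentile (16 of the 38 stayed), 6 without atrial arrays, 4 at p below 0.01 and between 7 and 11 with 1 array left out. The stricter filter on dim genes kept 16 of the 38 and the milder one 21, so counts under a filter come from fewer genes. In DM_AngIV against DM the number was 8, and 3 of 16 and 5 of 21 with the stricter and the milder filter. It was 2 without atrial arrays, 5 with the covariate, 3 at p below 0.01, and between 5 and 12 with 1 array left out. In DM_AngIV against NC it was 20, and 11 of 16 with the stricter and 15 of 21 with the milder filter. It was 15 with the covariate, 12 at p below 0.01, and between 13 and 22 with 1 array left out. With 1 array left out, the median difference ranged over 0.22 to 0.36 in DM_AngIV against NC, -0.00 to 0.16 in DM_AngIV against DM and 0.19 to 0.32 in DM against NC.

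Over all genes, called counts in DM_AngIV against NC were 198 in the reported fit, 50 without atrial arrays, 115 with the replicate block, 514 with the trended prior, 569 and 492 with the filters on dim genes, and 81 to 167 with 1 array left out. In DM against NC they were 3, and 0 without atrial arrays, 28 with the trended prior, 20 with either filter, and 2 to 30 with 1 array left out. Between the diabetic groups they were 0, and up to 5 with 1 array left out.

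Same-numbered arrays of different groups had deviations from their group means that correlated between -0.10 and 0.17 over 12 pairs, and other pairs between -0.16 and 0.22. By this measure over all genes same-numbered arrays were no more alike than other pairs, and a link that touches only some genes was not tested. With the replicate number as a block, Ifit2 (adjusted p = 0.0129), Trim21 (0.0312) and Irf9 (0.0466) passed in DM_AngIV against NC, and Cd274 (0.0703) and Lgals3bp (0.0614) did not. Lgals3bp also did not pass after quantile normalization (0.0637) or with only the 8 arrays compared (0.0615). Irf9 passed without genes below the median (0.0306) and with the trended prior (0.0335). Ifi204 passed with the stricter (0.0275) and the milder filter (0.0332) and with the trended prior (0.0269).

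Small differences changed sign. Cxcl10 in DM against NC was 0.063 without atrial arrays. For DM_AngIV against DM, Ifit3 was 0.0023 after centring arrays and 0.013 with the covariate, Cxcl9 was -0.13 without atrial arrays and -0.11 with the covariate, and Cxcl10 was -0.17 and -0.13. Cxcl9 in DM_AngIV against NC was -0.10 without atrial arrays and -0.059 with the covariate. With 1 array left out, Irf9 ranged over -0.0073 to 0.13 and Cxcl9 over -0.058 to 0.19 in DM against NC. Ifit3 ranged over -0.18 to 0.21, Cxcl9 over -0.0090 to 0.19 and Cxcl10 over -0.11 to 0.16 in DM_AngIV against DM, and Cxcl10 over -0.22 to 0.054 in DM_AngIV against NC. The cause was not tested, apart from the smaller numbers of genes or arrays that some settings use. Of 471 single-gene values under other settings, 445 kept their direction and their side of the threshold, and of 344 with 1 array left out 308 did. Most of these values belong to genes that did not pass in the reported fit, so these totals say little about the called genes. The 18 calls lost with 1 array left out were 3 for Trim21, 7 for Cd274 and 8 for Lgals3bp, from 8 fits for each gene. Signals below background limit 16 of the 38 genes throughout.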
